A study of Cricetulus griseus with 9 samples.

Results

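The genes next to Ssu72 are 10 protein-coding genes that follow one another along hamster chromosome 2 in the order Noc2l, Agrn, Ube2j2, Ints11, Dvl1, Aurkaip1, Ccnl2, Ssu72, Mib2 and Nadk. They were picked by symbol from a table of 6753 genes, all 10 were present, and all 10 passed the filter on low values. They were chosen as neighbours of Ssu72 after its difference between WTHK2 and EV cells, and that of the genes around it, was known. The values of WTHK2 against EV are therefore given below as a description, with no test. LAC against EV shares the 3 EV libraries with that comparison, and WTHK2 against LAC shares the 3 WTHK2 libraries, so neither stands apart from that choice.

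RNA sequencing measured mRNA in MI5-4 cells, a Chinese hamster ovary subline, in 3 groups of 3 libraries. WTHK2 cells are labelled as expressing wild-type hexokinase 2. LAC cells carry the empty vector and received 10 mM sodium lactate for 24 h. EV cells carry the empty vector alone and are described as lacking hexokinase. All were grown in alpha-modified minimum essential medium with 1000 mg/L glucose and 10% serum. The labels do not say whether WTHK2 and EV cells are single clones or pools, nor that replicates were separate cultures, so p-values reflect the spread between samples that may be technical repeats.

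Values are CPM, read counts scaled to library size, as normalized by the authors, with effective library sizes of 18050959 to 26238659 reads. They are not corrected for transcript length, so levels of different genes are not compared. Hk2, the gene named by the label, stood at 65.3 ± 1.33 CPM in WTHK2, 67.8 ± 2.92 CPM in LAC and 67.3 ± 2.11 CPM in EV (SD, n = 3 each). It was not higher in the libraries labelled WTHK2, so each direction given for them rests on the label. Whether reads of an introduced hexokinase 2 would be counted as Hk2 here was not tested. Hk1, the other listed hexokinase, averaged 285 CPM in WTHK2, 302 CPM in LAC and 324 CPM in EV, so hexokinase transcripts were present in EV. Of 4 mesenchymal markers 3 were in the table, and of 4 leukocyte and 4 epithelial markers 0 were listed. Against EV, the log2 differences of the 3 were 0.31 in WTHK2 and 0.035 in LAC for Vim, 0.56 and -0.023 for Col3a1, and -0.14 and -0.24 for Sparc. By limma, Vim and Col3a1 were called higher in WTHK2 and Sparc lower in LAC. The part of these differences in the results below was not tested.

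The 10 genes have varied jobs. Ssu72 is a phosphatase of the tail of RNA polymerase II, Ints11 is the RNA-cutting subunit of the Integrator complex, and Ccnl2 is a cyclin that works with CDK11 in splicing. Noc2l is a nucleolar protein of ribosome assembly that also inhibits histone acetyltransferases, and Aurkaip1 binds Aurora kinase A and is part of the mitochondrial ribosome. Dvl1 passes on Wnt signals, Mib2 is a ubiquitin ligase for Notch ligands, and Agrn codes for agrin, a proteoglycan of basement membranes. Ube2j2 is a ubiquitin-conjugating enzyme anchored in the endoplasmic reticulum, and Nadk is the cytosolic kinase that makes NADP from NAD. The human counterparts of these genes also lie close together, near the tip of the short arm of chromosome 1.

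Against EV, 8 of the 10 genes were higher in the libraries labelled WTHK2, by log2 differences of 0.44 for Nadk to 1.04 for Ssu72, and the 2 at the outer end, Noc2l and Agrn, were at 0.06 and -0.15. The median of the 10 was 0.57, beside -0.0082 over all genes. In these 8 no WTHK2 library overlapped an EV library, and over all genes 57.1% did not overlap. Of all genes 46.4% were called changed by limma at an adjusted p of 0.05, 21.0% higher and 25.4% lower. Since this comparison led to the choice of genes, nothing is read from these counts.

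In LAC the pattern was uneven: 7 of the 10 genes rose against EV, Nadk fell, and Ssu72 and Agrn did not pass. Over all genes 49.5% were called in either direction, 22.4% higher and 27.1% lower, and groups did not overlap for 57.8%, against 8 of these 10. The share of higher among called genes was 45.3%, but 58.6% when all libraries were rescaled to 1 common median (for WTHK2 against EV, 45.3% and 57.3%). The median of the 10 was 0.15 in LAC, beside -0.0035 over all genes, and the largest rises were those of Ccnl2 and Dvl1, by 0.39 each. Between the 2 groups, 8 of the 10 were higher in WTHK2 than in LAC and 0 were lower by limma (0 also at an unadjusted p under 0.05 and by voom on reads recovered from the CPM steps), while of all genes 16.1% were called, 8.37% higher and 7.76% lower. Values of the 2 groups did not overlap in those 8, as in 29.0% of all genes. The WTHK2 values were known when the genes were chosen. Nothing is therefore read from counts or p-values of WTHK2 against LAC for these genes, here or below. No member changed sign in any comparison under the 20 alternatives that were run, or for Ssu72 under 19, since a filter at 50 CPM removes it.

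**Figure D1:**
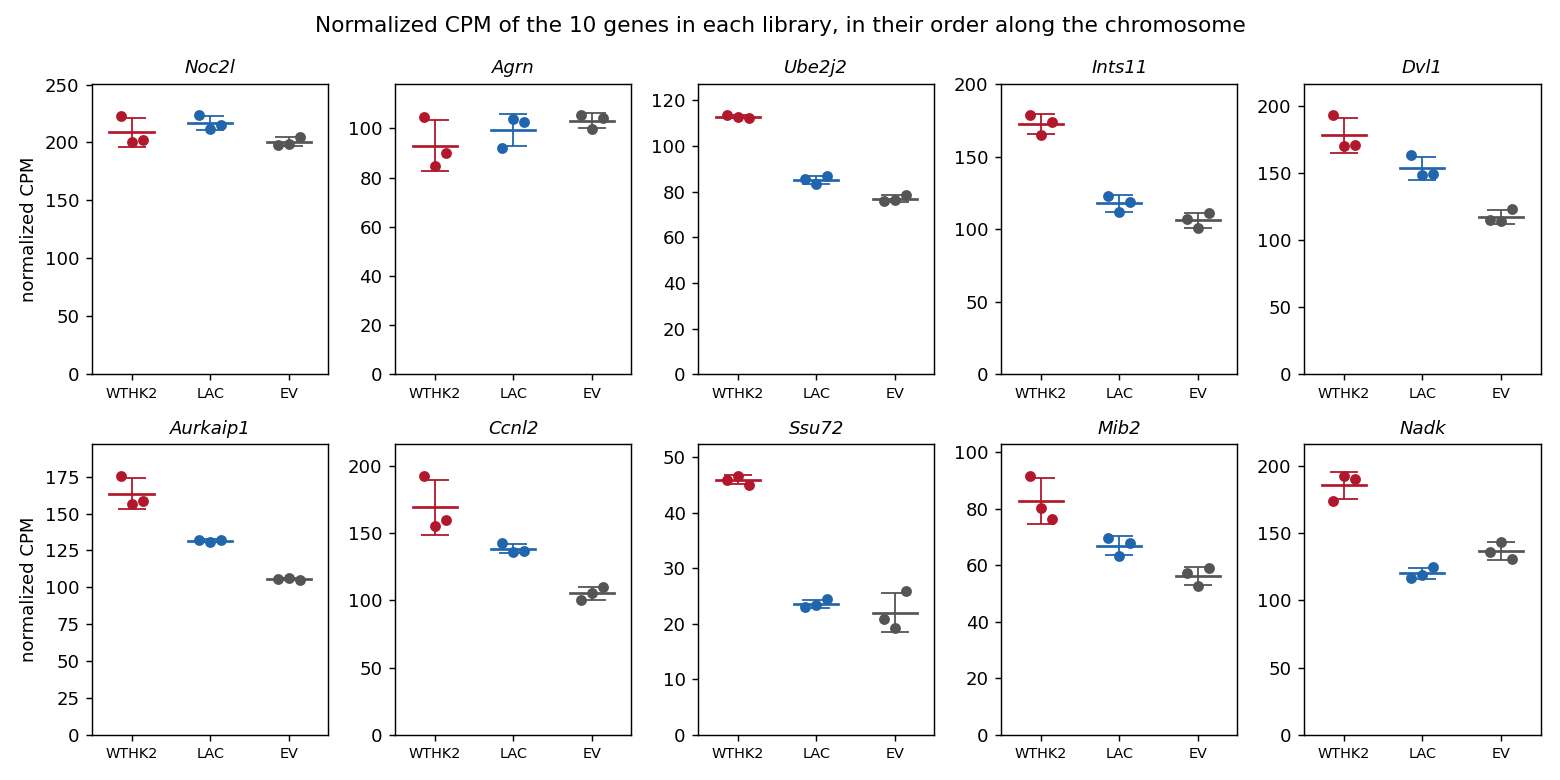
Each panel plots normalized CPM of 1 gene (vertical axis from 0) in the 9 libraries, with points for libraries, a wide line for the group mean and bars for the SD. For Ssu72 the 3 WTHK2 libraries lie at 45.1 to 46.7 CPM, above LAC at 23.0 to 24.4 CPM and EV at 19.2 to 25.9 CPM; Noc2l and Agrn have overlapping WTHK2 and EV points.

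Among the genes of transcription and RNA processing, Ssu72 had 45.9, 46.7 and 45.1 CPM in WTHK2 replicates 1 to 3, 23.0, 23.5 and 24.4 CPM in LAC, and 21.0, 19.2 and 25.9 CPM in EV. WTHK2 stood apart, while the LAC values lay within the EV range. The log2 difference of WTHK2 against EV was 1.04 (SE 0.088), a fold of 2.05, and ranked 2 among 6753 genes from the highest. Against LAC, Ssu72 was higher in WTHK2 by 0.93 (SE 0.088, limma adjusted p = 2.32e-07), the highest difference of all 6753 genes. Both comparisons use the WTHK2 libraries whose values were known when the genes were chosen. Nothing is read from these ranks or from that p. LAC against EV was 0.11, with a 95% interval of -0.074 to 0.29 (adjusted p = 0.315), and it passed without EV replicate 3, the highest EV library (0.23, adjusted p = 0.0305). Without EV replicate 2, the lowest EV library, it was 0.018 (adjusted p = 0.885). Ssu72 rested on 468 to 1226 reads per library, the fewest of the 10 genes, and overlaps an annotated lncRNA and an snRNA. Whether their reads add to its count was not tested.

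Ints11 had 179, 165 and 174 CPM in WTHK2, 123, 112 and 119 CPM in LAC, and 107, 101 and 111 CPM in EV. All WTHK2 libraries lay far above both other groups, whereas LAC cleared EV by a narrow margin. The log2 difference was 0.70 (SE 0.049) in WTHK2 against EV and 0.55 in WTHK2 against LAC (adjusted p = 1.16e-07). LAC exceeded EV by 0.15 (SE 0.049, adjusted p = 0.0165), a call lost without EV replicate 2 (adjusted p = 0.105), LAC replicate 1 (0.0819) or LAC replicate 3 (0.0505). Ints11 overlaps the annotated gene Pusl1 and a tRNA.

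Ccnl2 had 193, 155 and 160 CPM in WTHK2, 142, 136 and 136 CPM in LAC, and 101, 105 and 110 CPM in EV. The 3 groups formed 3 steps without overlap, and WTHK2 replicate 1 stood above the other WTHK2 libraries. Its log2 difference came to 0.68 (SE 0.061) in WTHK2 against EV, 0.39 in LAC against EV (SE 0.061, adjusted p = 3.63e-05), and 0.28 in WTHK2 against LAC (adjusted p = 0.00295). Without WTHK2 replicate 1 the difference between WTHK2 and LAC was 0.19 (adjusted p = 0.00927).

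Of the genes of ribosome assembly and the mitochondrial ribosome, Aurkaip1 had 176, 156 and 158 CPM in WTHK2, 132, 131 and 132 CPM in LAC, and 106, 106 and 105 CPM in EV. It too formed 3 steps, at almost even distances, with little spread in LAC and EV. The steps on the log2 scale were 0.62 (SE 0.046) in WTHK2 against EV, 0.31 in LAC against EV (adjusted p = 2.01e-05) and 0.31 in WTHK2 against LAC (adjusted p = 8.1e-05). Noc2l had 223, 200.6 and 202 CPM in WTHK2, 224, 212 and 215 CPM in LAC, and 198, 199 and 205 CPM in EV. Here WTHK2 overlapped both other groups. On the chromosome, Noc2l overlaps the annotated gene Samd11. Noc2l rose in LAC by 0.11 (SE 0.043, adjusted p = 0.0366), a call lost without EV replicate 1 (0.115), EV replicate 2 (0.103), LAC replicate 1 (0.14) or LAC replicate 3 (0.0648), and without the variance trend (0.0873).

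Of the signalling genes, Dvl1 had 193, 170 and 171 CPM in WTHK2, 163, 148 and 149 CPM in LAC, and 115, 114 and 123 CPM in EV. LAC lay closer to WTHK2 than to EV. Its log2 difference reached 0.60 (SE 0.053) in WTHK2 against EV, 0.39 in LAC against EV (SE 0.053, adjusted p = 1e-05), and 0.21 in WTHK2 against LAC (adjusted p = 0.00901), the last of which did not pass without LAC replicate 3 (0.0562). Mib2 had 91.7, 80.1 and 76.3 CPM in WTHK2, 69.7, 63.1 and 67.9 CPM in LAC, and 57.3, 52.7 and 58.8 CPM in EV. No 2 groups overlapped. Its log2 difference was 0.54 (SE 0.066) in WTHK2 against EV, 0.25 in LAC against EV (adjusted p = 0.00451) and 0.30 in WTHK2 against LAC (adjusted p = 0.00358).

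Agrn, by contrast, had 105, 84.5 and 89.9 CPM in WTHK2, 91.8, 104 and 103 CPM in LAC, and 106, 99.8 and 104 CPM in EV. The groups overlapped in all 3 comparisons. The log2 difference was -0.15 (SE 0.064) in WTHK2 against EV and -0.055 in LAC against EV (95% interval -0.19 to 0.079, adjusted p = 0.493). The difference of WTHK2 against EV was -0.24 without WTHK2 replicate 1 and -0.088 without WTHK2 replicate 2, and that of LAC against EV came to -0.00014 without LAC replicate 1. In WTHK2 against LAC it was -0.098 (adjusted p = 0.333), and without WTHK2 replicate 1 it passed, at -0.18 (adjusted p = 0.0254).

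Of the enzymes, Ube2j2 had 114, 113 and 112 CPM in WTHK2, 85.6, 83.2 and 86.8 CPM in LAC, and 76.0, 76.2 and 78.7 CPM in EV. WTHK2 stood well apart with hardly any spread, and LAC lay just above EV. On the log2 scale the difference was 0.55 (SE 0.046) in WTHK2 against EV, 0.40 in WTHK2 against LAC (adjusted p = 2.48e-06) and 0.15 in LAC against EV (adjusted p = 0.0126). Nadk had 174, 193 and 190.1 CPM in WTHK2, 117, 119 and 124 CPM in LAC, and 136, 144 and 131 CPM in EV. It was the one member that went opposite ways in the 2 groups, above EV in WTHK2 and below EV in LAC, with no overlap. The log2 difference was 0.44 (SE 0.048) in WTHK2 against EV, -0.18 in LAC against EV (SE 0.048, adjusted p = 0.00391), and 0.62 in WTHK2 against LAC (SE 0.048, adjusted p = 1.42e-08).

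Within WTHK2, replicate 1 was mostly the highest. WTHK2 replicate 1 held the highest WTHK2 value in 8 of the 10 genes, and LAC replicate 1 the highest LAC value in 5. In EV, replicate 3 held the highest value in 7. The median deviation of the 10 genes from the EV mean was 0.71, 0.54 and 0.54 in WTHK2 replicates 1 to 3 and 0.19, 0.11 and 0.17 in LAC replicates 1 to 3. With both first replicates left out, 5 genes were called higher in LAC against EV, in place of 7.

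Along the chromosome, the higher values in WTHK2 set in between Agrn and Tnfrsf4, the next gene in the table. From Noc2l to Nadk the reference holds 50 annotated genes, of which 39 are protein-coding and 13 are in the table: the 10 genes and 3 others. Tnfrsf4, the receptor OX40 known from T cells, averaged 348 ± 14.8 CPM in WTHK2, 256 ± 12.8 CPM in LAC and 228 ± 12.7 CPM in EV. Acap3, an activator of Arf GTPases, averaged 48.6 ± 4.62 CPM in WTHK2, 35.6 ± 2.07 CPM in LAC and 33.6 ± 0.905 CPM in EV. Mrpl20, of the large subunit of the mitochondrial ribosome, averaged 118 ± 6.43 CPM in WTHK2, 99.7 ± 5.21 CPM in LAC and 81.5 ± 3.0 CPM in EV. All 3 lay above EV in every WTHK2 library, with log2 differences of 0.61, 0.52 and 0.52. In LAC against EV, Tnfrsf4 rose by 0.16 (adjusted p = 0.00598) and Mrpl20 by 0.29 (adjusted p = 1.92e-04), while Acap3 was at 0.078 (adjusted p = 0.386).

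**Figure D2:**
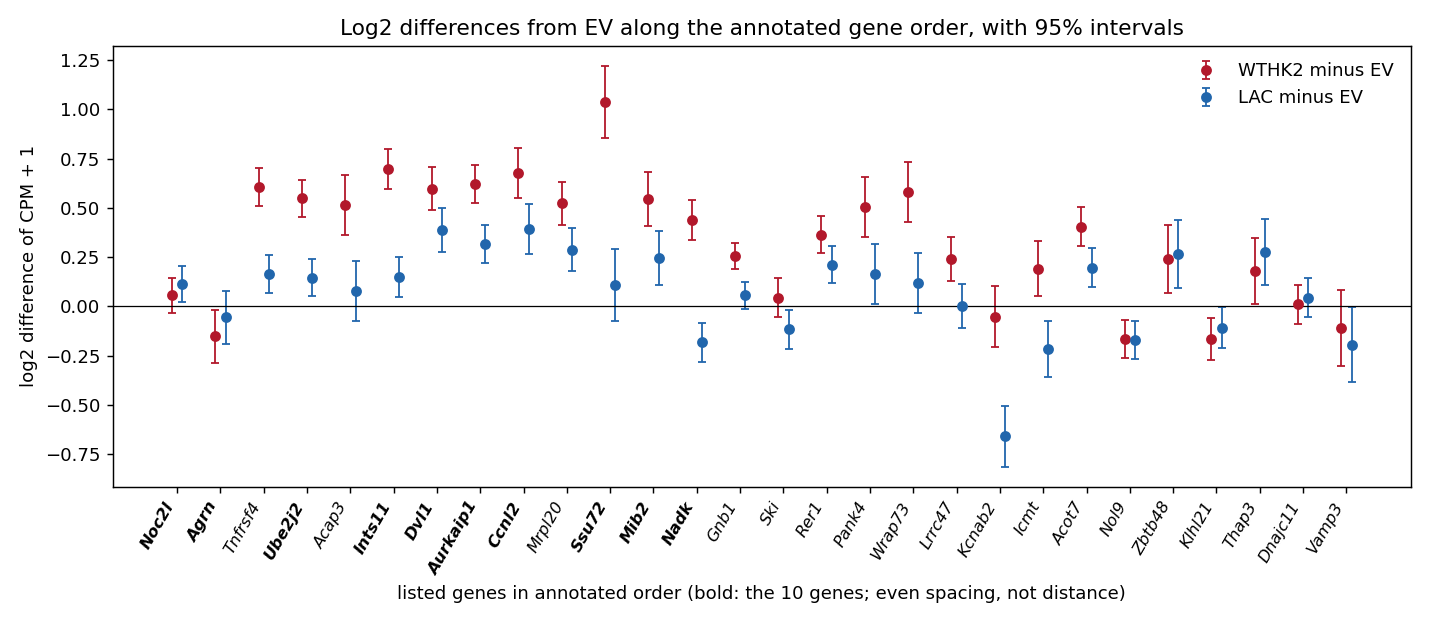
Log2 differences of CPM + 1 from EV (vertical axis) are plotted for WTHK2 and LAC over 28 genes of the table in annotated order (horizontal axis, evenly spaced), with 95% intervals from limma. In WTHK2 the values step from -0.15 at Agrn to 0.61 at Tnfrsf4, peak at Ssu72 and become mixed after Nadk, while in LAC they range from -0.66 at Kcnab2 to 0.39 at Ccnl2.

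No gene of the table lies before Noc2l on this chromosome in the reference. After Nadk, Gnb1, a beta subunit of G proteins, was at 0.25 in WTHK2 against EV, Ski, a repressor in TGF-beta signalling, at 0.04, and Rer1, a retrieval receptor of the Golgi, at 0.36. Further on, Pank4 was at 0.51, Wrap73 at 0.58 and Acot7 at 0.40, with Kcnab2 at -0.05 and Nol9 at -0.17 between or after them. Over the 15 genes after Nadk the median was 0.19, with 8 called higher and 2 lower. Over the other 1015 genes of chromosome 2 in the table it was -0.0065, with 197 called higher and 250 lower. In LAC against EV the 15 genes had a median of 0.044, with 4 higher and 4 lower. Of all genes, 21.0% were called higher and 25.4% lower in WTHK2 against EV, and 22.4% and 27.1% in LAC against EV. In WTHK2 against LAC, limma called 9 of the 15 higher and 0 lower, beside 8.37% and 7.76% of all genes. Nothing is read from the counts that use WTHK2. Rer1 rose in LAC by 0.21 (adjusted p = 6.95e-04), and Gnb1 was at 0.055 (adjusted p = 0.164). Against LAC, Gnb1 was higher in WTHK2 by 0.20 (adjusted p = 2.01e-04), Ski by 0.16 (0.0264) and Rer1 by 0.15 (0.0241).

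A list of 68 genes whose human counterparts lie near the human cluster had 22 genes in the table, and some of them, Cdk11b and Atad3a included, had no entry of their symbol in the reference. Cdk11b, the kinase that pairs with cyclin L2, averaged 302 ± 20.9 CPM in WTHK2, 240 ± 14.1 CPM in LAC and 194 ± 7.67 CPM in EV, with log2 differences from EV of 0.64 in WTHK2 and 0.30 in LAC (adjusted p = 5.78e-05). Atad3a, an ATPase of the mitochondrial inner membrane, averaged 184 ± 3.81 CPM in WTHK2, 136 ± 3.46 CPM in LAC and 134 ± 5.81 CPM in EV. Its difference from EV was 0.45 in WTHK2 and 0.018 in LAC (adjusted p = 0.750). Of the 22 genes, limma called 18 higher in WTHK2 against EV and 0 lower (1, Agrn, at an unadjusted p under 0.05 or by voom). In LAC 11 were higher and 3 lower. Both counts include the 10 genes. The comparison of WTHK2 with EV led to the choice of genes, so nothing is read from its count. Of all genes, 21.0% were called higher in WTHK2 and 22.4% in LAC.

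Relatives of the 10 genes outside this run, by family or by function, were centred near the EV level in WTHK2. Relatives by function were the phosphatases set beside Ssu72, and Noc4l set beside Noc2l. Of 15 relatives on the list 14 were in the table, 5 of them elsewhere on chromosome 2. In WTHK2 against EV their median was -0.019, with 1 higher and 3 lower, and in LAC -0.084, with 1 higher and 5 lower. Of all genes, 46.4% were called in WTHK2 against EV and 49.5% in LAC against EV. Mib1, the close relative of Mib2, averaged 28.2 ± 0.473 CPM in WTHK2, 25.6 ± 3.13 CPM in LAC and 43.3 ± 2.65 CPM in EV. It fell in LAC, at -0.74 (SE 0.081, adjusted p = 1.45e-06), where Mib2 rose. Dvl3 fell in LAC, at -0.23 (adjusted p = 5.83e-04), and Dvl2 was at -0.091 (adjusted p = 0.385), where Dvl1 rose. Ccnl1 rose in LAC, by 0.18 (adjusted p = 0.0471), as Ccnl2 did, and Ube2j1 fell, at -0.20 (adjusted p = 0.0187).

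**Figure D3:**
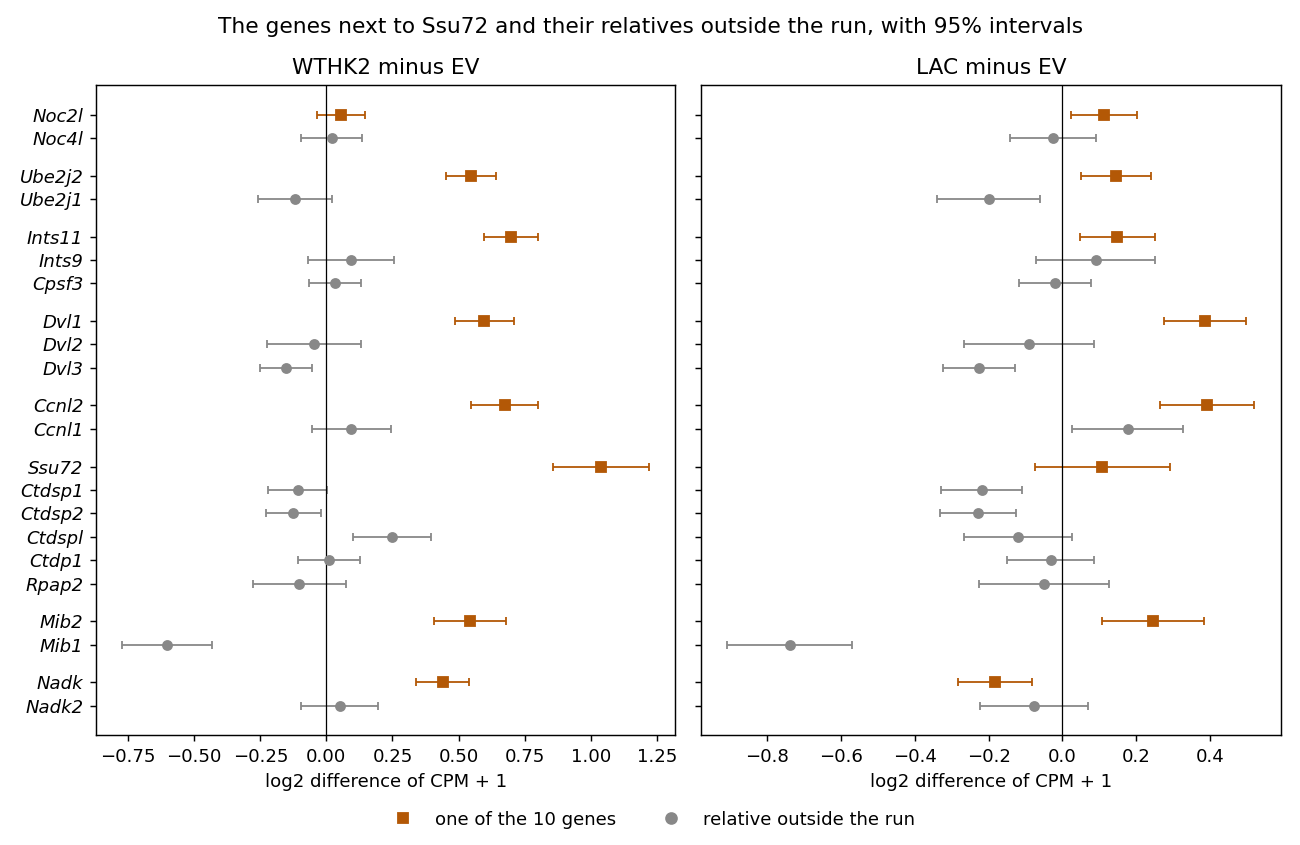
Log2 differences of CPM + 1 from EV (horizontal axes) are plotted for WTHK2 on the left and LAC on the right, with 95% intervals from limma. Squares are 8 of the genes, and circles are their 14 relatives by family or by function. Mib1 lies at -0.60 in WTHK2 and -0.74 in LAC, opposite to Mib2 at 0.54 and 0.25.

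Among the remaining relatives, Noc4l was at 0.02 in WTHK2 and -0.026 in LAC against EV, and Nadk2 at 0.05 and -0.077. For the other phosphatases that act on or resemble those of the polymerase tail, the WTHK2 differences were -0.11 for Ctdsp1, -0.12 for Ctdsp2, 0.25 for Ctdspl, 0.0087 for Ctdp1 and -0.10 for Rpap2. In LAC, Ctdsp1 fell at -0.22 (adjusted p = 0.00202) and Ctdsp2 at -0.23 (adjusted p = 8.28e-04), while Ctdspl was at -0.12 (adjusted p = 0.161). For the relatives of Ints11, Ints9 was at 0.09 in both WTHK2 and LAC, and Cpsf3 at 0.03 and -0.02.

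The other genes of the complexes that the 10 genes belong to were counted on lists that include the member itself. Over all genes, 21.0% were called higher and 25.4% lower in WTHK2 against EV. In LAC against EV these shares were 22.4% and 27.1%. They stand beside every list below, and no list was tested as a set. Of 13 Integrator subunits in the table, 2 were called higher and 4 lower in WTHK2 against EV, and in LAC 1 was higher, Ints11 itself, and 2 were lower. These were Ints1, at -0.21 (adjusted p = 0.001), and Ints5, at -0.16 (adjusted p = 0.0275). Of 23 genes of polymerase tail dephosphorylation and RNA 3′ end processing, 2 were higher and 6 lower in WTHK2, and 3 higher and 6 lower in LAC, with Cpsf2, of the cleavage complex, at -0.36 (adjusted p = 4.11e-06). Of 14 transcription and splicing cyclins and kinases, 4 were higher and 3 lower in WTHK2, and 5 higher and 3 lower in LAC. Cdk12, a kinase of elongating polymerase, fell in LAC at -0.60 (adjusted p = 2.61e-07), where Ccnl2 and Cdk11b rose.

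In Wnt signalling, 3 of 18 genes were higher and 8 lower in WTHK2. In LAC, Dvl1 was the 1 gene higher and 8 were lower, among them Apc, a scaffold that holds back beta-catenin, at -0.32 (adjusted p = 3.18e-04). In Notch signalling, 3 of 13 were higher and 5 lower in WTHK2. In LAC, Mib2 was the 1 higher gene and 5 were lower, among them Notch2, at -0.37 (adjusted p = 2.84e-05), and Maml1, a coactivator, at -0.37 (adjusted p = 2.84e-04). Of 9 agrin receptors and basement membrane genes, 1 was higher and 4 lower in WTHK2, and 1 higher and 6 lower in LAC. There Dag1, dystroglycan, was at -0.50 (adjusted p = 1.66e-06), Hspg2, perlecan, at -0.41 (adjusted p = 2.44e-06) and Nid1, nidogen, at -0.43 (adjusted p = 2.61e-06).

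For Ube2j2, the list of degradation at the endoplasmic reticulum had 3 of 11 genes higher and 2 lower in WTHK2. In LAC, Ube2j2 was the 1 higher gene and 4 were lower, among them Ube2j1, Sel1l at -0.65 (adjusted p = 1.62e-05) and Nploc4 at -0.20 (3.86e-04). For Nadk, 3 of 10 genes of NAD and NADP supply were higher and 1 lower in WTHK2. In LAC 0 were higher by limma, at an unadjusted p under 0.05 or by voom, and 3 were lower by limma adjusted p: Nadk, Nampt at -0.13 (0.0213) and Me1 at -0.14 (0.0365). Of 6 genes of nucleolar NOC complexes and ribosome assembly, 1 was higher and 2 lower in WTHK2, and 2 were higher and 1 lower in LAC. The calls in LAC were Noc2l, Ebna1bp2 at 0.20 (adjusted p = 7.42e-04) and Pdcd11 at -0.20 (adjusted p = 2.53e-04).

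The genes outside the 10 with the profile most like their mean over the 9 libraries were Serpinh1, Cdk5rap3, Fdps, Tnfrsf4 and Ephx1, with Pearson's r of 0.990, 0.987, 0.986, 0.985 and 0.982. Of these, Tnfrsf4 lies inside the run and the others lie on other chromosomes. The most like Ssu72 alone were Fdft1 at 0.984, Wbp2 at 0.981, Vim at 0.977, Rab5c at 0.973 and Gnb1 at 0.971, of which Gnb1 is the first gene of the table after Nadk. Within the 10, the r with Ssu72 was 0.974 for Ints11 and 0.972 for Ube2j2, 0.797 for Dvl1, 0.095 for Noc2l and -0.52 for Agrn. These values describe 9 libraries in 3 groups, share the libraries' scaling, and mostly follow the differences between the groups.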

How the data were processed

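RNA from MI5-4 Chinese hamster ovary cells was made into mRNA libraries, 3 for each of 3 groups. The submitters' processing notes name STAR 2.7.0a, featureCounts 2.0.1, edgeR 3.8, and also cutadapt 1.18 and FastQC 0.11.8. For the build, the annotation and the strand setting, the sources used here give nothing. The deposited table holds the authors' normalized CPM for 6753 genes, and all 9 columns were used.

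Every value was a whole multiple of a step per library within a tolerance of 0.01 reads (100% of values), which yields the effective size of each library. Values were analysed as log2(CPM + 1), a filter at a mean of 1 CPM removed 0 genes, and one limma model (limma 3.58.1, R 4.3.3; trended variance, groups as the only terms) covered the 9 libraries. The fit was also run on values simulated from the means and spread of these data, with fewer genes changed than were called in LAC against EV. P-values were two-sided and adjusted by Benjamini and Hochberg over all 6753 genes, and adjusted p under 0.05 was called changed. This scale understates changes of low genes. Summaries and plots used Python 3.11.15 with pandas 2.3.3, numpy 2.4.6 and matplotlib 3.10.9.

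The genes, the lists and the tests were chosen with earlier results of these data known. No p is given for the 10 genes in the comparison of WTHK2 with EV, which drew attention to them, and limma calls there enter counts as a description. Gene order came from RefSeq genes of assembly CriGri-PICRH-1.0 by symbol (6143 of 6753 genes matched, 91.0%), used for order alone. The text names the 10 genes, the listed genes between them and the 3 after them, their relatives, up to 3 called genes with the smallest adjusted p for each list (1 such gene is not reported here), and the 5 genes most like each of 2 profiles. Other genes named after the run, and Cdk11b and Atad3a, were chosen after their values were seen. Alternatives are given in the closing section.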

Additional observations from a re-analysis of the deposited data

How the results depend on the processing

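Of 597 values of single genes under 20 alternatives (pseudocounts, filters, scalings, fits of 6 libraries, no variance trend, replicate block, voom, libraries left out), 576 kept their direction and their side of the threshold, 11 lost a call, 10 gained one and 0 changed sign. These counts include WTHK2 against EV, where nothing is read from them. The filter at 50 CPM removes Ssu72, which leaves 19 alternatives for it. In WTHK2 against EV, which led to the choice of the genes and is given as a description, the count of lower calls among the 10 was 0, but 1 (Agrn) in fits of 6 libraries, with the replicate block, with voom, and without both first replicates, and 0 to 1 with single libraries left out. In WTHK2 against LAC it was 0, but 1 without both first replicates, and 0 to 1 with single libraries left out; 7 to 8 genes were called higher there. In LAC against EV, 5 to 8 genes were called higher with single libraries left out, and 5 without both first replicates. Over all genes, WTHK2 against LAC gave 1089 calls, and 662 to 1279 with single libraries left out (701 without LAC replicate 3, 662 without WTHK2 replicate 3). The correlation of same-numbered deviations from the group means was -0.0057 to 0.44. In WTHK2 against LAC it was 0.44, 0.25 and 0.073 for replicates 1 to 3. The main model has no replicate term, and whether same-numbered libraries were paired was not tested. With the replicate block, calls over all genes were 1414 in WTHK2 against LAC. The edgeR fit on recovered reads was not run; voom on those reads and the fit without both first replicates were chosen after seeing the data, and voom called 1097 genes in WTHK2 against LAC. The cause of the changes was not tested.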
